A study of Homo sapiens with 6 samples.

Results

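The secretory epithelial genes AGR2, PGC, TM4SF1, ST6GALNAC1 and S100P were followed through all 6 RNA-seq libraries of a study of C4-2B cells. They are 5 genes, found by symbol, among the 17602 genes listed for the SR2211 experiment, the 16293 listed for the XY011 experiment and the 22642 gene names listed for the enzalutamide experiment. They were chosen by their changes against vehicle in these same libraries, so those changes are given as a description and without a test. C4-2B, a bone metastatic derivative of the prostate cancer line LNCaP, is an established cell line, and it was kept in medium with 9% charcoal-stripped and 1% regular serum, which imitates castration. All 6 libraries share that medium and a 48 h exposure. The treated groups were SR2211 at 5 µM, an inverse agonist of a nuclear receptor, XY011 at 5 µM, which is known only by its code name, and enzalutamide (ENZ) at 20 µM, an androgen antagonist used against prostate cancer. Each treated library was set against the vehicle library of its own experiment. Every group was 1 library from this single line, so no difference has a replicate check.

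Secretory epithelium makes proteins for export, folds them in the endoplasmic reticulum and decorates many of them with O-linked sugars. AGR2 encodes a protein disulfide isomerase of the endoplasmic reticulum that helps mucins fold. PGC encodes pepsinogen C, the precursor of an aspartic protease made in the stomach and in the prostate. TM4SF1 encodes a membrane protein of the L6 family that lies in the plasma membrane beside integrins. ST6GALNAC1 encodes the Golgi sialyltransferase that caps the first sugar of O-linked chains and so makes the sialyl-Tn antigen. S100P encodes a calcium-binding protein that can be released from cells and bind the receptor AGER. AGR2, TM4SF1 and ST6GALNAC1 are known as androgen-induced genes in prostate cancer cells, which is background and was not measured here.

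The SR2211 pair is given in RPKM, and the other pairs in FPKM, which are reads or fragments scaled by gene length and by the mapped total of the library. Changes are log2((treated + 1)/(vehicle + 1)), and a gene is called higher or lower where this reaches 1 in size and the level is 1 or more in either library. The SR2211 library had a depth of 0.996 relative to its vehicle, read back from the values of low genes, and the depth of the other libraries is unknown. All 9 prostate luminal markers looked at were listed in each experiment. Their levels summed to 1196 RPKM with SR2211 and 2886 RPKM in its vehicle. The sums were 1348 FPKM with XY011 and 2901 FPKM in its vehicle, and 3126 FPKM with ENZ and 4530 FPKM in its vehicle. KLK3, the most abundant in every vehicle, stood at 212 RPKM with SR2211, against 1357 RPKM in vehicle. It stood at 461 FPKM with XY011, against 1315 FPKM in vehicle, and at 1487 FPKM with ENZ, against 2484 FPKM in vehicle. Of these 9 markers, 4 were called lower with SR2211, 4 with XY011 and 2 with ENZ, and none higher. The shares called lower over all genes tested were 5.76%, 13.2% and 4.65%. The marker medians were -0.745, -0.82 and -0.19. Gastric epithelium, which also makes PGC, had summed marker levels between 0.785 and 5.03 over the 6 libraries, with 2 to 4 of 9 markers listed. Markers of basal epithelium summed to 0.332 to 4.49, neuroendocrine markers to 0.320 to 1.06 and endothelial markers to 0.391 to 1.03. Leukocyte markers summed to 5.49 to 19.5, mostly CD68 and LYZ, and fibroblast markers to 2.63 to 48.9, the highest with ENZ. Of the 5 fibroblast markers listed there, 1 was called higher and none lower, with a median change of 0.12 over the 4 tested. The part of these markers in the changes below was not tested.

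Promoter windows of 300 bases, from 250 before the transcription start to 50 after it, were taken from RefSeq (GRCh38.p14) and were found for 4 of the 5 genes, all but ST6GALNAC1. The windows of PGC, TM4SF1 and S100P are shown because they hold the matches to the 9 motifs searched. PGC and S100P also changed in opposite directions with SR2211 and XY011. Capitals mark the matched letters. The PGC window lies at chr6:41747348-41747647 on the minus strand, the TM4SF1 window at chr3:149377600-149377899 on the minus strand and the S100P window at chr4:6693628-6693927 on the plus strand.
PGC: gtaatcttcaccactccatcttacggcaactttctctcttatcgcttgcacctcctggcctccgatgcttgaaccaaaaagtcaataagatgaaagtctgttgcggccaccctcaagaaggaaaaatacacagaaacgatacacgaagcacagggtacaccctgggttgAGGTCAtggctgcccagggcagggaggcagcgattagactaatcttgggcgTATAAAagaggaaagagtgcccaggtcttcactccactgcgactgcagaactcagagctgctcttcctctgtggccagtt
TM4SF1: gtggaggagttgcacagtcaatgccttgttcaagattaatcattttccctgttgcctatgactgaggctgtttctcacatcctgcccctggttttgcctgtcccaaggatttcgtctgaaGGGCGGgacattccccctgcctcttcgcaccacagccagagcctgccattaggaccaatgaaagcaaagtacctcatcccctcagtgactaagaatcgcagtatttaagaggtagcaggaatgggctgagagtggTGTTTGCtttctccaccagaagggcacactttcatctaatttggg
S100P: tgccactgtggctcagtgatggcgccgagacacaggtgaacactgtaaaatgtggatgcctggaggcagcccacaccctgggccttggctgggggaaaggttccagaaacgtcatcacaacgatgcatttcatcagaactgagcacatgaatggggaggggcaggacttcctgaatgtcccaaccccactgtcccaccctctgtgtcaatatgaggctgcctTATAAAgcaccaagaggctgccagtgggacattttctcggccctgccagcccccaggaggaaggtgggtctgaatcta

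PGC and S100P each hold a TATA box (TATAAA), with its first base at -30 and -28 from the start, a motif found in 11.5% of all 35116 promoter windows on either strand. PGC also holds 1 nuclear receptor hexamer (AGGTCA) at -81, found in 13.8% of all windows. TM4SF1 holds 1 forkhead motif (TGTTTGC) at position 6 after the start, found in 3.89%, and 1 Sp1 box (GGGCGG) at -130, found in 45.0%. The AGR2 window, at chr7:16804950-16805249 on the minus strand, held no match to any of the 9. None of the 4 windows held the hexamer AGAACA of the androgen response element (14.8% of all windows), its full palindrome (0.00285%), the ROR element ANTAGGTCA (0.49%), the other forkhead motif TGTTTAC (3.42%) or the element TTGCATCA bound by CHOP and ATF4 (0.866%). The AGGTCA hexamer would overlap the ROR element, which contains it. The windows had 6 CpG for AGR2, 9 for PGC, 4 for TM4SF1 and 5 for S100P, against a median of 14 over all windows, and 29.6% to 43.6% of all windows had as few. A match describes the letters of the window only.

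AGR2 (gene 10551) stood at 11.3 RPKM with SR2211, against 63.7 RPKM in its vehicle. In the XY011 experiment it stood at 1.34 FPKM with XY011, against 35.2 FPKM in its vehicle. In the ENZ experiment it stood at 61.0 FPKM with ENZ, against 313.8 FPKM in its vehicle. AGR2 was thus lower in every treated library than in its own vehicle, although on these separately normalised scales the ENZ library held a level close to that of the SR2211 vehicle. The log2 changes were -2.39 with SR2211, -3.95 with XY011 and -2.34 with ENZ, that is 5.63, 26.3 and 5.14 times lower as plain ratios of the levels. In RNA from whole cultures, here and below, fewer cells making a transcript and less of it per cell cannot be told apart. Within its library, AGR2 lay at percentile 50.6 of the genes at 1 or more with SR2211, against 89.9 in vehicle. With XY011 it lay at percentile 4.0, against 81.4 in vehicle. With ENZ it lay at percentile 83.7, against 97.0 in vehicle. The ENZ library and its vehicle had 18243 and 18434 genes at 1 or more, and the others had 11663 to 12126. Percentiles are therefore not compared between ENZ and the other experiments. The smallest whole read numbers that give the RPKM values are 23 with SR2211 and 130 in vehicle, a ratio of 0.178. Its exact 95% interval is 0.109 to 0.278, for counting error only. True read numbers, here and below, can be a multiple of these, and the interval would then be narrower.

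PGC (gene 5225) was close to the limit of 1 in every treated library. It stood at 1.14 RPKM with SR2211, against 16.2 RPKM in vehicle. It stood at 1.14 FPKM with XY011, against 18.0 FPKM in vehicle. It stood at 0.796 FPKM with ENZ, against 21.3 FPKM in vehicle. The 3 vehicle levels of this protease gene lay close together, and the 3 treated levels did too. The scales were normalised separately and the treated levels are near the limit of 1, so nothing is read from this closeness. The log2 changes were -3.0 with SR2211, -3.15 with XY011 and -3.63 with ENZ, and as plain ratios the levels were 14.2, 15.8 and 26.7 times lower. PGC lay at percentile 1.8 with SR2211, against 59.8 in vehicle, and at 1.8 with XY011, against 66.1 in vehicle. With ENZ it was under 1 and so had no percentile, against 62.8 in vehicle. Its smallest whole read numbers are 13 with SR2211 and 185 in vehicle, a ratio of 0.0706 (exact 95% interval 0.0369 to 0.124).

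TM4SF1 (gene 4071), the L6 family gene, stood at 5.72 RPKM with SR2211, against 59.3 RPKM in vehicle. It stood at 0.92 FPKM with XY011, against 38.2 FPKM in vehicle. It stood at 12.5 FPKM with ENZ, against 50.5 FPKM in vehicle. On these separately normalised scales, the gene dropped under the limit of 1 with XY011 only. The log2 changes were -3.17 with SR2211, -4.35 with XY011 and -1.93 with ENZ, and the plain ratios 10.4, 41.5 and 4.03 times lower. By the size of the decrease, TM4SF1 was number 2 of 12142 genes tested with SR2211, number 3 of 12607 with XY011 and number 169 of 19238 with ENZ. It lay at percentile 29.6 with SR2211, against 89.0 in vehicle. It lay at percentile 49.6 with ENZ, against 80.1 in vehicle, while the vehicle of XY011 had it at 83.0. Its smallest whole read numbers are 80 with SR2211 and 833 in vehicle, a ratio of 0.0965 (exact 95% interval 0.0757 to 0.122).

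ST6GALNAC1 (gene 55808), the sialyl-Tn enzyme gene, stood at 7.49 RPKM with SR2211, against 61.6 RPKM in vehicle. It stood at 10.4 FPKM with XY011, against 105 FPKM in vehicle. It stood at 39.0 FPKM with ENZ, against 185 FPKM in vehicle. Unlike AGR2 and TM4SF1, it kept a level well above 1 in all 3 treated libraries. The log2 changes were -2.88 with SR2211, -3.22 with XY011 and -2.21 with ENZ, and the plain ratios 8.22, 10.1 and 4.73 times lower. It lay at percentile 37.3 with SR2211, against 89.6 in vehicle. With XY011 it lay at percentile 51.1, against 94.7 in vehicle, and with ENZ at 76.1, against 94.4 in vehicle. Its smallest whole read numbers are 39 with SR2211 and 322 in vehicle, a ratio of 0.122 (exact 95% interval 0.0849 to 0.170).

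S100P (gene 6286), the calcium-binding protein gene, was the member with the opposite pattern. It stood at 19.0 RPKM with SR2211, against 1.43 RPKM in vehicle. It stood at 19.0 FPKM with XY011, against 0.94 FPKM in vehicle. In the ENZ experiment it stood at 32.9 FPKM with ENZ, against 38.5 FPKM in vehicle. S100P was thus near the limit of 1 in the vehicles of SR2211 and XY011, but in the ENZ vehicle, on that table's own scale, it stood above both of those treated libraries. The log2 changes were 3.04 with SR2211 and 3.37 with XY011, while that with ENZ, -0.22, did not reach the size rule. By the size of the increase S100P was number 17 of 12142 genes with SR2211 and number 16 of 12607 with XY011. It lay at percentile 66.7 with SR2211, against 4.5 in vehicle, and at 68.4 with XY011, whose vehicle had it under 1. With ENZ it lay at percentile 72.7, against 75.6 in vehicle. Its smallest whole read numbers are 79 with SR2211 and only 6 in vehicle, so the ratio of 13.2 has a wide exact 95% interval, 5.81 to 37.1.

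**Figure D1:**
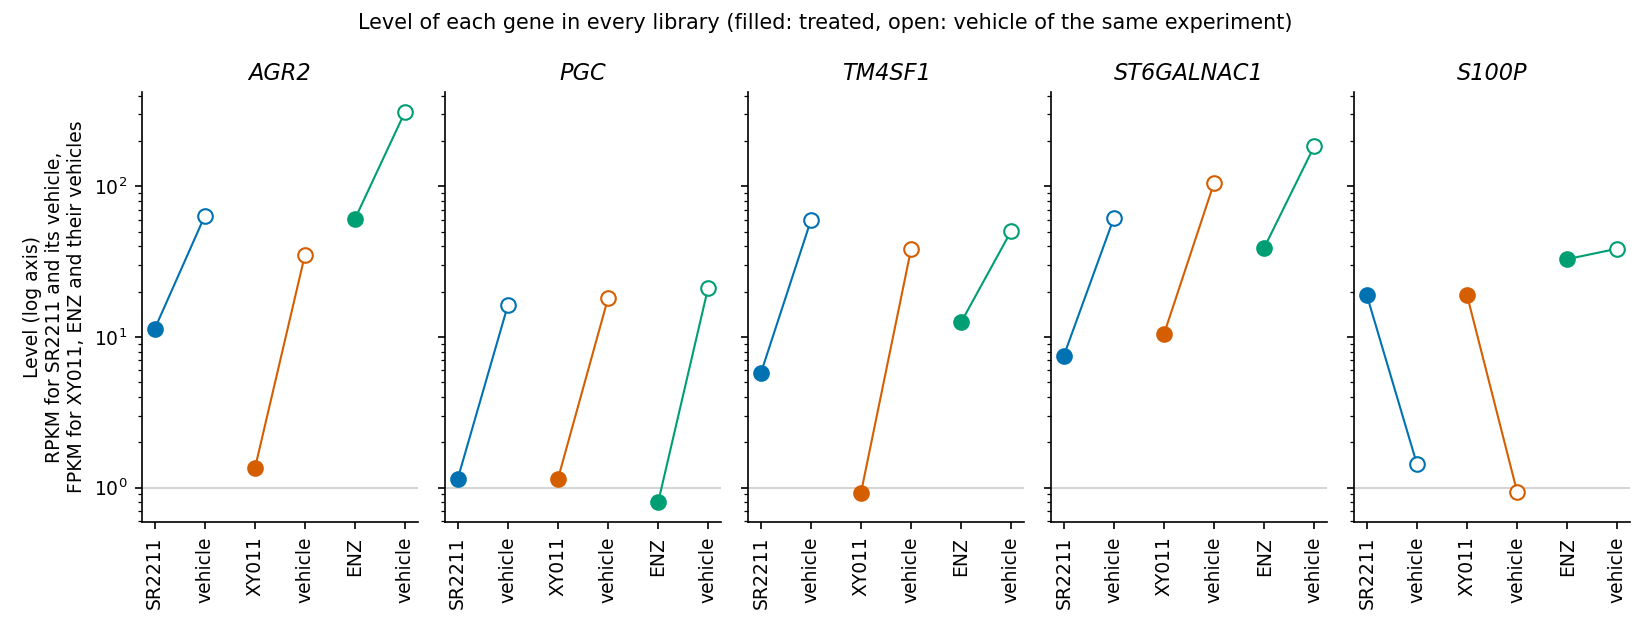
Level of each gene in every library on a log axis, in RPKM for SR2211 and its vehicle and in FPKM for the others. Filled points are treated libraries, open points the vehicle of the same experiment, 1 library each, and the grey line marks a level of 1. AGR2, PGC, TM4SF1 and ST6GALNAC1 lie lower in each treated library, while S100P stands at 19.0 with SR2211 and XY011, against 1.43 and 0.94 in their vehicles, and at 32.9 with ENZ, against 38.5 in vehicle.

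With SR2211, 4 of the 5 genes were called lower and 1 higher, where 5.76% of 12142 genes tested were called lower and 5.1% higher. With XY011 the count was again 4 lower and 1 higher, where 13.2% of 12607 genes were called lower and 7.59% higher. With ENZ, 4 were called lower and none higher, where 4.65% of 19238 genes were called lower and 3.67% higher. Because these contrasts chose the genes, nothing is read from the counts against those shares. Among 11125 genes tested in all 3 experiments, 100 were called lower with SR2211, XY011 and ENZ, as AGR2, PGC, TM4SF1 and ST6GALNAC1 were, and 300 were called higher with SR2211 and XY011 but not called with ENZ, as S100P was. The median gene moved by -0.07 with SR2211, -0.14 with XY011 and -0.02 with ENZ on the log2 scale, and centring XY011 on it changed the split of all its calls to 1271 higher and 1214 lower, against 957 and 1661 as deposited. All 5 genes passed the filter on low values in each experiment, although TM4SF1 with XY011, PGC with ENZ and S100P in the vehicle of XY011 stood under 1 themselves.

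**Figure D2:**
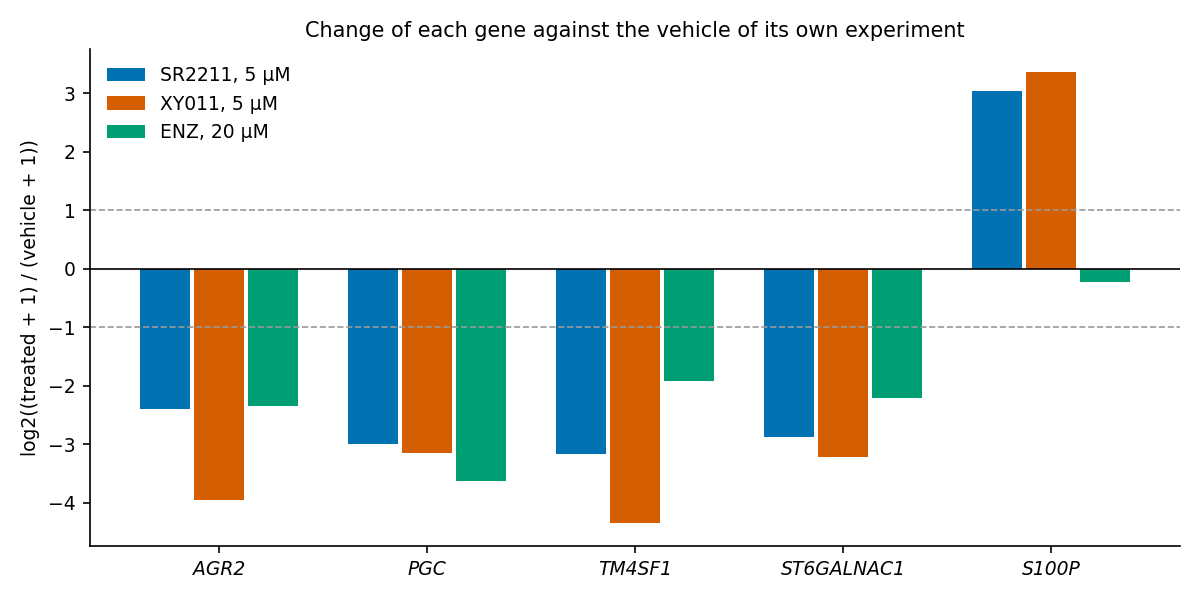
Log2 change of each gene against the vehicle of its own experiment, with bars from 0 for SR2211 (5 µM), XY011 (5 µM) and ENZ (20 µM) and dashed lines at the size rule of 1. Bars for AGR2, PGC, TM4SF1 and ST6GALNAC1 run from -1.93 to -4.35, and S100P has 3.04 and 3.37 with SR2211 and XY011 but -0.22 with ENZ.

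SR2211 and XY011 were given at the same dose and for the same time, so their 5 changes can be set side by side, although no difference could be tested with 1 pair each. XY011 minus SR2211, the log2 change differed by -1.56 for AGR2 and -1.19 for TM4SF1, whose decreases were larger with XY011. For PGC, ST6GALNAC1 and S100P the differences were -0.15, -0.33 and 0.33. Over the 11627 genes tested in both experiments the difference had a median of -0.06, and 95% of genes lay between -1.16 and 0.90. Most of those genes hardly changed, while the 5 were chosen for large changes, so nothing is read from their place in that span. With a pseudocount of 5 the changes of TM4SF1 lay closer together, at -2.87 with XY011 and -2.58 with SR2211, and those of AGR2 were -2.67 with XY011 and -2.07 with SR2211. The ENZ changes come from another dose and are not compared.

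**Figure D3:**
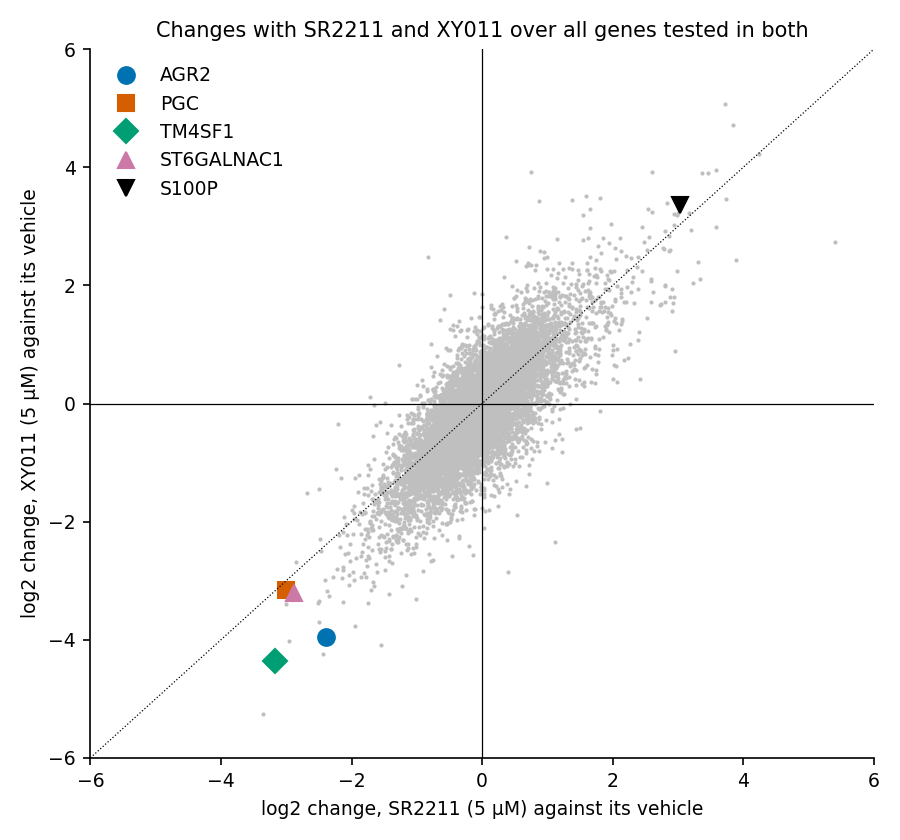
Log2 change with XY011 (vertical axis) against that with SR2211 (horizontal axis) for 11627 genes tested in both experiments, in grey, with the 5 genes as coloured symbols and the dotted line at equal change. PGC, ST6GALNAC1 and S100P lie near the line, and AGR2 and TM4SF1 below it, by -1.56 and -1.19.

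The vehicle libraries show how much the levels vary without a compound, across tables that the authors normalised separately. The difference between vehicles was therefore centred on the median gene. S100P was higher in the vehicle of ENZ than in the vehicle of SR2211 by 3.47 and than in the vehicle of XY011 by 3.74 on the log2 scale. AGR2 was likewise higher in the vehicle of ENZ, by 1.74 over the vehicle of SR2211 and by 2.51 over that of XY011. ST6GALNAC1 differed by 1.02 between the vehicles of ENZ and SR2211, and by 0.19 between those of ENZ and XY011. TM4SF1 and PGC differed by less than 1 in size in all 3 pairs of vehicles, TM4SF1 by -0.78, -0.22 and -0.52 and PGC by -0.18, -0.38 and 0.25, each for ENZ over SR2211, ENZ over XY011 and XY011 over SR2211. In count, 3 of the 5 genes passed 1 in size between the vehicles of ENZ and SR2211, where 25.0% of 12211 genes did. Between the vehicles of ENZ and XY011 it was 2 of 5, where 30.1% of 12305 genes did. Between the vehicles of XY011 and SR2211 it was none, where 8.38% of 11679 genes did. The normalisation of each table, its sequencing and its culture cannot be told apart here.

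In the vehicle of SR2211 the order of levels per length was AGR2, ST6GALNAC1, TM4SF1, PGC and S100P, of which the first 3 lay within 59.3 to 63.7 RPKM. In the vehicle of XY011 it was ST6GALNAC1, TM4SF1, AGR2, PGC and S100P, with TM4SF1 and AGR2 at 38.2 and 35.2 FPKM. In the vehicle of ENZ it was AGR2, ST6GALNAC1, TM4SF1, S100P and PGC. S100P thus moved to the head of the order with SR2211 and with XY011, where it stood above all 4 other genes, and with ENZ stood above TM4SF1 and PGC only. With no replicate libraries, whether close neighbours in these orders differ could not be tested.

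**Figure D4:**
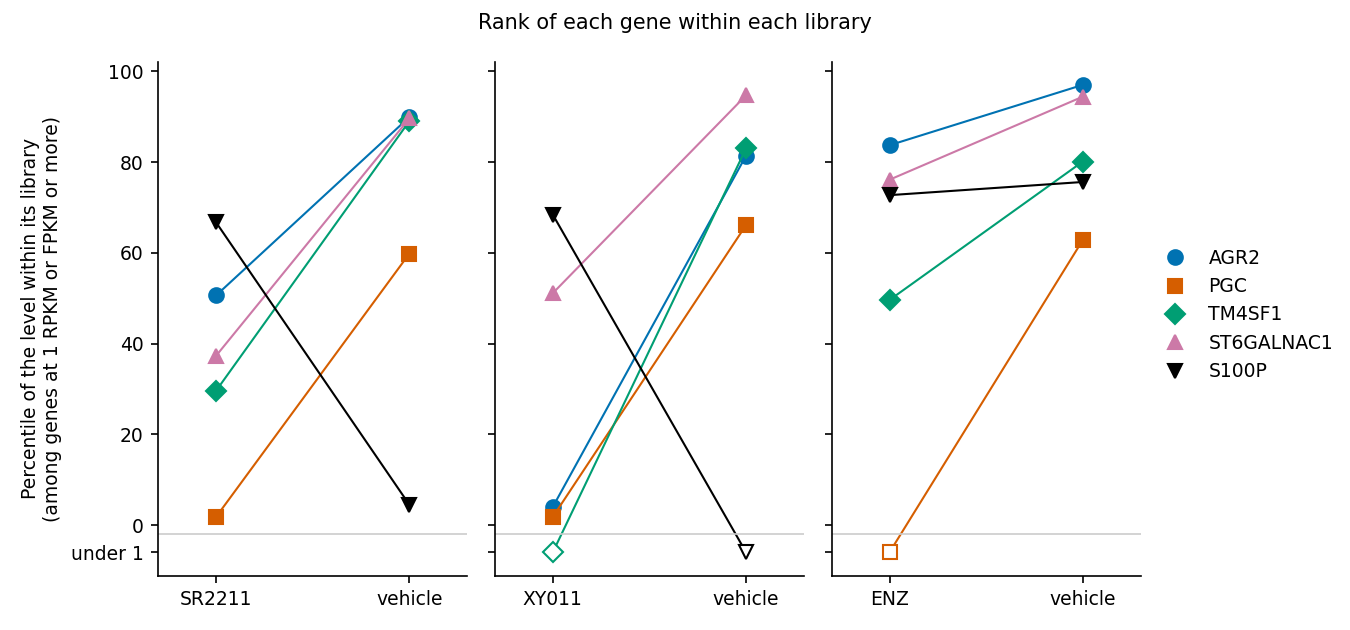
Percentile of each gene's level within its library, among genes at 1 RPKM or FPKM or more, for the treated library (left in each panel) and the vehicle of the same experiment (right). Open symbols on the lowest row are levels under 1. The ENZ panel ranks over more genes than the others. S100P lies at 66.7 and 68.4 with SR2211 and XY011, against 4.5 and under 1 in their vehicles, and at 72.7 with ENZ, against 75.6 in vehicle.

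The genes most like each member were taken by Euclidean distance over the 3 log2 changes, among 8145 genes listed in all 3 tables and at 5 or more in at least 1 library of every experiment. Nearest to AGR2 were FKBP5, a co-chaperone gene (distance 0.289, changes -2.50, -3.70 and -2.44 for SR2211, XY011 and ENZ), MCCC2, a leucine breakdown gene (0.549), and PMEPA1 (0.747). TM4SF1 had MCCC2 (0.737), AGR2 itself (0.964) and FKBP5 (1.06) as nearest genes. Nearest to ST6GALNAC1 were the kallikrein gene KLK2 (0.587, changes -2.85, -2.68 and -1.97), the aminotransferase gene AADAT (0.614) and FKBP5 (0.656). Nearest to PGC were SLC45A3, which encodes prostein (0.872), the nicotinic receptor gene CHRNA2 (0.936) and PMEPA1 (1.02). FKBP5 was among the 3 nearest for AGR2, TM4SF1 and ST6GALNAC1. For S100P the nearest were GADD45A, a growth arrest gene (0.593, changes 2.98, 3.19 and 0.34), FAM43A (0.718, changes 2.44, 2.99 and -0.08) and NUPR1, a stress-induced gene (0.821, changes 2.83, 3.40 and 0.57). The 4 genes that were lower lay 0.893 to 2.09 from each other, and S100P lay 9.07 to 10.05 from them. These distances use the same changes by which the 5 genes were chosen, so nothing is read from their closeness or from the gap. A distance over 3 pairs describes these libraries, and large decreases are few, so distances among them depend on which genes were listed.

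The closest other genes by name or role were put in lists, and these, with the 5 members left out, were then read in the same way. For these and the lists below, the shares called over all genes tested were 5.1% higher and 5.76% lower with SR2211. They were 7.59% and 13.2% with XY011, and 3.67% and 4.65% with ENZ. No list count was tested against these shares. Of the AGR and protein disulfide isomerase family none of 15 genes tested was called with SR2211, 1 of 15 was lower with XY011 and none of 16 was called with ENZ. The medians were -0.38, -0.53 and -0.20, against -0.07, -0.14 and -0.02 over all genes tested. P4HB, the classical protein disulfide isomerase, stood at 328 RPKM with SR2211, against 416 RPKM in vehicle (log2 -0.34), and PDIA3 at 176 RPKM, against 246 RPKM in vehicle (-0.48). Both had small changes with XY011 as well, -0.26 and -0.53. AGR3, the family gene next to AGR2, was not listed in any of the 3 experiments and so has no value here. The list of the wider secretory machinery and its regulators, 37 genes, had 2 higher and none lower with SR2211, 2 higher and 2 lower with XY011, and none called with ENZ. With XY011 the count was 6 higher and 2 lower after centring and after quantile scaling. Its medians were -0.13, -0.15 and -0.23, and that with XY011 turned to 0.01 after quantile scaling. ERN1, the sensor kinase IRE1 of the unfolded protein response, stood at 28.7 RPKM with SR2211, against 5.12 RPKM in vehicle (log2 2.28), and at 30.7 FPKM with XY011, against 4.71 FPKM in vehicle (2.47). It had a change of 0.41 with ENZ. The abundant chaperone genes HSPA5 and CALR had changes of 0.63 and -0.53 with SR2211 and of 0.26 and -0.72 with XY011.

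Among the other aspartic protease genes, 3 were tested in each experiment. BACE2 was called higher with all 3 compounds, at 8.02 RPKM with SR2211, against 1.55 RPKM in vehicle (log2 1.82), at 3.32 FPKM with XY011, against 0.32 FPKM in vehicle (1.71), and at 6.73 FPKM with ENZ, against 0.67 FPKM in vehicle (2.21). CTSD, the lysosomal cathepsin D gene, had changes of 0.06, 0.02 and -0.09, and BACE1 of -0.25, -0.05 and 0.89. Of the L6 family and tetraspanins, 2 of 15 genes were higher and none lower with SR2211, 1 was higher and 1 lower of 15 with XY011, and 1 of 16 was higher with ENZ. The medians were -0.19, -0.05 and 0.18, and the XY011 median was 0.09 after centring. TSPAN7 was the gene called higher with both SR2211 (1.79) and XY011 (1.80), at 3.85 RPKM against 0.403 RPKM in vehicle and at 2.89 FPKM against 0.12 FPKM in vehicle. The abundant CD9 and CD63 had changes of -0.57 and 0.68 with SR2211 and of -0.24 and 0.59 with XY011.

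Sialyltransferases and genes of sialic acid supply had 1 higher of 15 with SR2211, 2 higher of 15 with XY011 and 2 higher of 15 with ENZ, and none lower. Over all genes tested, 5.1%, 7.59% and 3.67% were called higher and 5.76%, 13.2% and 4.65% lower. The list medians were 0.16, 0.60 and -0.10. ST3GAL1, which sialylates the core sugar of O-linked chains, stood at 116 RPKM with SR2211, against 94.3 RPKM in vehicle (log2 0.29), and NANS, a sialic acid synthase gene, at 61.9 RPKM, against 98.2 RPKM in vehicle (-0.66). Of the mucin O-glycosylation genes, 2 were higher and 2 lower of 14 with SR2211, 1 higher and 3 lower of 15 with XY011, and 1 higher and 2 lower of 16 with ENZ. GCNT1, which branches O-linked chains, stood at 6.45 RPKM with SR2211, against 28.0 RPKM in vehicle (-1.96), at 5.24 FPKM with XY011, against 19.7 FPKM in vehicle (-1.73), and at 14.4 FPKM with ENZ, against 36.0 FPKM in vehicle (-1.27). C1GALT1C1, the chaperone of the enzyme that extends the Tn antigen, had changes of -1.12 with SR2211, -1.19 with XY011 and -0.06 with ENZ. B4GALT1, a galactosyltransferase gene, had changes of 0.46, 0.55 and 0.10 with SR2211, XY011 and ENZ. GALNT7, of the family that adds the first sugar, had changes of -0.44 and -0.51 with SR2211 and XY011 and was called lower with ENZ (-1.08). The list medians were -0.07, -0.25 and 0.00, and the XY011 median was 0.01 after quantile scaling.

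As deposited, no other tested gene of the S100 family or its partners was called higher with SR2211 or XY011. None of 9 genes tested was called with SR2211, 2 of 7 were lower and none higher with XY011, and 1 was higher and 1 lower of 15 with ENZ. Quantile scaling gave 1 higher and 2 lower with XY011. The medians were -0.29, -0.22 and 0.29, and the XY011 median turned to 0.13 after quantile scaling. S100A11, a calcium-binding relative of S100P, stood at 209 RPKM with SR2211, against 211 RPKM in vehicle (log2 -0.01), and at 262 FPKM with XY011, against 337 FPKM in vehicle (-0.36). CACYBP, whose protein binds S100 proteins, had changes of -0.74, -1.32 and -0.52. AGER, the receptor gene, was low throughout, at 0.869 RPKM with SR2211, against 1.88 RPKM in vehicle, and under 1 in the other 4 libraries.

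Mucins, trefoil factors and goblet-type secretory genes had 1 higher and 2 lower of 13 with SR2211, 1 higher and 3 lower of 11 with XY011, and 2 higher and 2 lower of 16 with ENZ, with medians of -0.23, -0.18 and -0.04. SPDEF, a transcription factor of secretory cells, stood at 35.6 RPKM with SR2211, against 129 RPKM in vehicle (log2 -1.82), at 28.9 FPKM with XY011, against 95.6 FPKM in vehicle (-1.69), and at 74.0 FPKM with ENZ, against 153 FPKM in vehicle (-1.04). CREB3L4, a membrane-bound transcription factor of secretory tissue, stood at 20.4 RPKM with SR2211, against 70.2 RPKM in vehicle (-1.73), at 14.7 FPKM with XY011, against 94.7 FPKM in vehicle (-2.61), and had a change of -0.64 with ENZ. LCN2, which encodes the secreted lipocalin 2, was called higher with SR2211 (1.28) and XY011 (1.82) where both vehicles stood under 1. Of the prostate secretory products, 8 of 18 were called lower with SR2211, 10 of 16 with XY011 and 5 of 17 with ENZ, with none higher. Over all genes tested, 5.76%, 13.2% and 4.65% were called lower. Their medians, -0.74, -1.44 and -0.40, kept their sign after centring and quantile scaling. SLC45A3 had changes of -2.95, -4.02 and -3.54, KLK2 of -2.85, -2.68 and -1.97, KLK3 of -2.68, -1.51 and -0.74, KLK15 of -1.72, -2.26 and -1.15, and CRISP3, a secreted cysteine-rich protein gene, of -1.20, -1.44 and -0.84. The list also holds genes of membrane proteins, SLC45A3, FOLH1 and MME among them. The abundant FOLH1 had changes of 0.44, -0.31 and 0.49, and MME of 0.22, -0.15 and 0.28, none of them called. This list was chosen with earlier results of these libraries known.

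**Figure D5:**
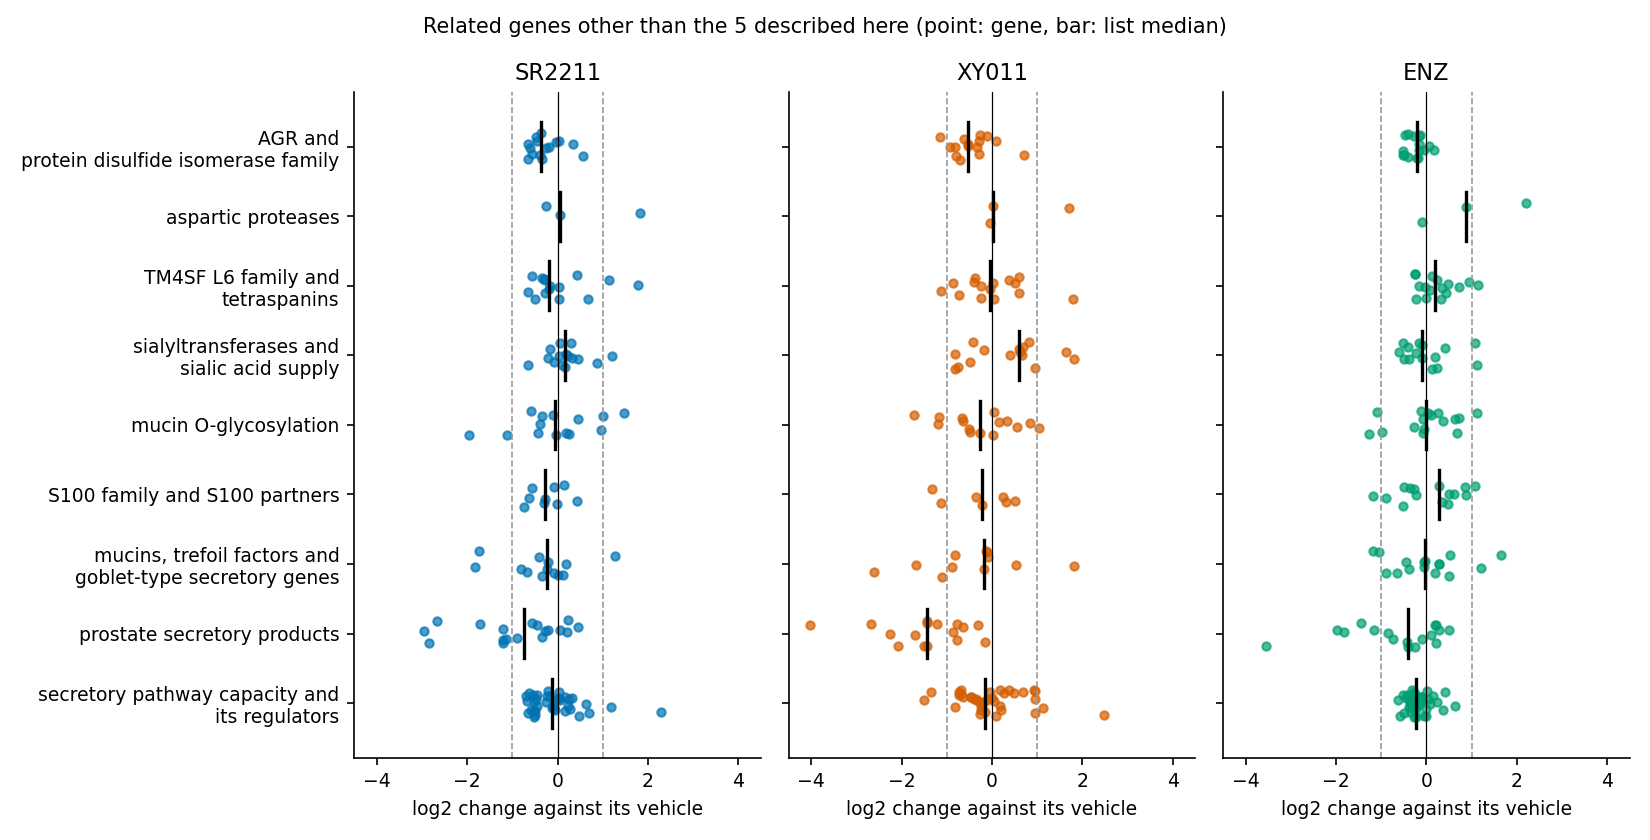
Log2 change of each tested gene (points) on 9 lists of related genes, with the list median as a black bar, for SR2211, XY011 and ENZ against their vehicles. Dashed lines mark the size rule of 1. Prostate secretory products have the lowest median with SR2211, XY011 and ENZ alike, at -0.74, -1.44 and -0.40. The other lists have medians between -0.53 and 0.89 over the 3 compounds.

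The genes next to each member on its chromosome were read to see whether the changes extended beyond the member, with 2 protein-coding genes taken on each side by RefSeq order. Of these 20 genes, 1 was higher and 1 lower of 13 tested with SR2211, 1 higher and 3 lower of 14 with XY011, and 3 higher and none lower of 12 with ENZ. Over all genes tested, 5.1% were called higher and 5.76% lower with SR2211, 7.59% and 13.2% with XY011, and 3.67% and 4.65% with ENZ. Near AGR2, BZW2 was called lower with XY011 (-1.06), and near ST6GALNAC1, JMJD6 was called lower with SR2211 (-1.09), each in the direction of the member. With ENZ, PRICKLE4 near PGC (1.18) and MXRA7 near ST6GALNAC1 (1.23) were called higher. AHR, a ligand-activated transcription factor gene close to AGR2, was called higher in all 3 experiments, with changes of 1.18, 1.05 and 1.23, opposite to AGR2. TSPAN13, on the other side of AGR2, stood at 68.8 RPKM with SR2211, against 97.3 RPKM in vehicle (-0.49), and was called lower with XY011 (-1.12). Beside TM4SF1, WWTR1, which encodes the coactivator TAZ, stood at 0.119 RPKM with SR2211, against 1.16 RPKM in vehicle, at 0.24 FPKM with XY011, against 1.06 FPKM in vehicle, and at 1.42 FPKM with ENZ, against 3.18 FPKM in vehicle, without reaching the size rule. TM4SF18, also beside it, was under 1 in all 6 libraries. ST6GALNAC2, the relative close to ST6GALNAC1, was under 1 in all 6 libraries too. Of the neighbours of S100P, MRFAP1 and MRFAP1L1 had changes between -0.47 and -0.02 and MRFAP1L2 was called lower with XY011 (-1.09), while S100P was called higher with SR2211 and XY011. These neighbours were named by position, a choice made after values had been seen.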

How the data were processed

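RNA-seq gene tables of 6 C4-2B libraries were used. RNA was poly(A)-selected and libraries made with a TruSeq kit, and the ENZ pair was sequenced as paired ends of 100 bp, per the labels' protocols. The authors computed the deposited RPKM values of the SR2211 experiment and the deposited FPKM values of the XY011 and ENZ experiments, per the file headers. Cufflinks, Cuffdiff, Bowtie and BWA appear in the submitters' processing notes, with hg19 and GRCh37 as builds. Not given in the sources used here are the tool behind each table, versions, annotation and use of strand. Reads of overlapping or antisense genes therefore cannot be told apart. Groups were taken from the titles. The extraction protocol names another code in place of XY011, and that of the ENZ pair names SR2211.

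Genes without reads stand at 0.01 in the SR2211 tables, at 0.001 in the XY011 tables and at 0 in the ENZ table, which lists no gene at 0 in its vehicle but 730 with ENZ, so that a gene unseen in that vehicle could not appear. Tables were joined by Entrez identifier, and ENZ by symbol (15538 current, 1299 older and 5805 unmatched names), leaving 13348 genes in all 3. ENZ lines sharing a name were summed. Small RNA genes were left out. A gene was tested at a level of 1 or more in either library, with a pseudocount of 1 and a size rule of 1 on the log2 scale, which has no p-value. The 1 library per group leaves the spread between cultures unmeasured.

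Read numbers of the SR2211 pair were worked back from the RPKM ratio of equal reads, shared by 464 of 2794 low genes. The smallest whole numbers within a relative tolerance of 1e-08 were taken, and true ones can be a multiple, which leaves a ratio as it is and narrows its interval. Intervals (exact binomial, 95%) cover counting error only, and reads without molecular identifiers are not independent molecules. The code was tested on simulated data.

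Members, lists and rules were chosen with earlier results of these data known. The genes named are the 5 members, the 3 nearest to each, and from each list those called the same way with SR2211 and XY011 (at most 6) plus the 2 highest in vehicle. AGER, FOLH1, MME and the chromosomal neighbours were named after their values were seen. Alternatives were other pseudocounts, filters, size rules, centring and quantile scaling. Protein comparisons were not made. Python 3.11.15, pandas 2.3.3, numpy 2.4.6, scipy 1.17.1 and matplotlib 3.10.9 were used.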

Additional observations from a re-analysis of the deposited data

Results flagged for a closer look

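S100P was picked out because its change with ENZ, -0.22 on the log2 scale, had the opposite sign to its changes with SR2211 and XY011, 3.04 and 3.37. The difference was not tested, since each experiment had 1 pair of libraries and ENZ was given at another dose. Its level in the vehicle of ENZ was 38.5 FPKM, against 1.43 RPKM and 0.94 FPKM in the vehicles of SR2211 and XY011. These levels come from tables that the authors normalised separately.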

How the results depend on the processing

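The 15 changes of the 5 genes kept their direction and their side of the size rule in all 90 cases. Each case took 1 change under 1 alternative: pseudocounts of 0.1 and 5, centring, quantile scaling, no filter and a filter of 5. A filter cannot alter the change of a gene, and the 5 genes were chosen by their changes. The count of 90 is therefore no measure of how firm the changes are. Their sizes moved with the pseudocount: the change of TM4SF1 with XY011 ranged from -5.23 to -2.87, that of PGC with ENZ from -4.58 to -2.18 and that of S100P with SR2211 from 1.90 to 3.64. Counts of members called were 5, 5 and 4 for SR2211, XY011 and ENZ under every alternative, the size rules of 1.5 and 0.5 included. Counts over all genes, 1318 with SR2211, 2618 with XY011 and 1601 with ENZ, moved more. A pseudocount of 0.1 gave 2016 with SR2211 and 2758 with ENZ, and one of 5 gave 557, 1059 and 456. A size rule of 1.5 gave 404, 912 and 495, and one of 0.5 gave 4612, 6477 and 5805. A filter of 5 gave 981 with ENZ, where fewer genes were tested. No paired analysis was possible because each group holds 1 library, and for the same reason no library could be left out. In the SR2211 pair, where smallest whole read numbers could be worked back, S100P had the lowest of them, 6 in vehicle.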
